A study of Mus musculus with 18 samples.

Results

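The cytosolic chaperonin TRiC, also called CCT, was followed through its 8 subunit genes, Tcp1, Cct2, Cct3, Cct4, Cct5, Cct6a, Cct7 and Cct8. They were found in the table of estimated counts by their gene name, and all 8 were present, with 59 of the 115125 transcript entries and 8 of the 47643 genes. The RNA was total RNA of the mouse embryonic stem (ES) cell line 5G6GR, which carries a Gata6 fusion that can be induced, grown on gelatin without feeder cells in serum and leukemia inhibitory factor with puromycin and blasticidin. All 18 libraries were made from purified RNA of this line. RT-RamDA, which displaces cDNA strands and copies the template again during reverse transcription, was run on 10 pg of RNA with 5 primer sets and 3 libraries each. The sets were not-so-random primers, designed to avoid ribosomal RNA, mixed with oligo(dT) (NSRdT), random hexamers mixed with oligo(dT) (N6dT), not-so-random primers alone (NSR), hexamers alone (N6) and oligo(dT) alone (dT), which anneals to poly(A) tails. These 15 libraries shared a single-stranded DNA kit and 17 PCR cycles. The 3 bulk libraries were made from 200 ng of RNA with rRNA depletion, another kit and 7 PCR cycles, with N6 as the labelled primer, so that input, kit, depletion and cycles all differed between RT-RamDA and bulk. The labels do not tell whether a group's 3 libraries stem from separate cultures, and p-values then measure the spread between these libraries, which may be technical.

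TRiC is a double ring in which each ring holds 1 copy of each of 8 related subunits, and it folds newly made proteins with the help of ATP. Actin and tubulin depend on it, as do many WD40-repeat proteins. Prefoldin hands unfolded chains to it, and phosducin-like proteins act on it as cofactors. Because every ring needs all subunits in equal number, the levels of the 8 mRNAs can be set against each other within a library. In human pluripotent stem cells TRiC is abundant and helps to keep the proteome in order.

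Libraries held between 5333546 and 10234690 estimated counts, of which TRiC took between 8633 and 40893. TRiC made up between 0.199% and 0.215% of the counts with NSRdT, between 0.1445% and 0.153% with N6dT, between 0.150% and 0.163% with NSR, between 0.113% and 0.122% with N6, between 0.373% and 0.409% with dT, and between 0.317% and 0.341% in bulk. All 6 ES cell markers were above 0 in every library. Levels are given in CPM, which are counts scaled by the library total and by a factor for library composition (TMM). These factors ran from 0.649 to 1.70 over the 18 libraries. The 7 primitive endoderm markers summed to at most 751 CPM in any RT-RamDA library. In bulk the lowest sum was 494 CPM and that of replicate 2 was 4420 CPM, so bulk replicate 2 stood apart. Log2 fold changes without it are given beside the comparisons of subunits with bulk. Markers of feeder fibroblasts summed to at most 8.56 CPM and those of trophectoderm to at most 37.2 CPM in any library.

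Coordinates follow mm10, the build of the GENCODE vM21 annotation. Tcp1, the alpha subunit, first described as a product of the mouse t-complex, lies on the plus strand at chr17:12915701-12925067 (ENSMUSG00000068039.12) and has 10 transcript entries. Cct2, the beta subunit, lies on the minus strand at chr10:117051001-117063814 (ENSMUSG00000034024.7) and has 1 entry. Cct3, the gamma subunit, lies on the plus strand at chr3:88297116-88321767 (ENSMUSG00000001416.13). Cct4, the delta subunit, lies on the plus strand at chr11:22990519-23003780 (ENSMUSG00000007739.10) and has 9 entries. Cct5, the epsilon subunit, whose human gene is mutated in a hereditary sensory neuropathy, lies on the minus strand at chr15:31590800-31601804 (ENSMUSG00000022234.14). Cct6a, the zeta subunit, lies on the plus strand at chr5:129786998-129846371 (ENSMUSG00000029447.11). Its 7 entries carry no protein-coding label, since 4 are labelled processed_transcript and 3 retained_intron, although the gene encodes the subunit. Cct7, the eta subunit, lies on the plus strand at chr6:85451514-85468475 (ENSMUSG00000030007.8), and Cct8, the theta subunit, on the minus strand at chr16:87483326-87495873 (ENSMUSG00000025613.13).

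Entries of at least 1400 bases were compared at their 3′ ends. Left out were retained_intron forms and entries whose last exon begins elsewhere than in the gene's most counted entry. For 5 subunits, several of the remaining entries end more than 50 bases apart. Among these, Cct4 and Cct6a were the ones whose split between long-ended and short-ended entries set the NSR and N6 libraries apart from all others, as described further on. The last 30 bases of their long and short entries, read from GENCODE vM21 transcripts, are shown because the primer sets counted these entries differently. The entries also differ in their start and in exon number, 14 against 13 for Cct4 and 13 against 15 for Cct6a. Which difference the counts follow was not tested. Capitals mark the stop codon at which the short entries finish, and the long entries have none in this window.
Cct4-001, long end: caaccttaaatgaatgctgagattacaggt
Cct4-004, short end: aaaatcgatgatgtggtaaatactcgaTAA
Cct6a-001, long end: atacttaaagagtgaagctactggatcatt
Cct6a-201, short end: cgagctgggatgtcctctctgaagggtTGA
Cct4-001 is 2484 bases long and ends at chr11:23003780, while Cct4-004 is 1634 bases long and ends 629 bases before it. Cct6a-001 is 2454 bases long and ends at chr5:129846371, while Cct6a-201 is 1599 bases long and ends 551 bases before it. None of the 4 windows holds AATAAA or ATTAAA, the common poly(A) signals, which were found in the last 30 bases of the main entries of Cct2, Cct3, Cct8 and Tcp1.

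TRiC mRNAs had their highest summed level with oligo(dT) alone and, once scaled for composition, their lowest with random primers alone. Summed over the 8 genes and scaled for composition (TMM), TRiC averaged 2014 ± 101 CPM with NSRdT, 1993 ± 59 CPM with N6dT, 1856 ± 56 CPM with NSR, 1810 ± 65 CPM with N6, 2802 ± 144 CPM with dT and 1960 ± 96 CPM in bulk (SD, n = 3 each). The dT libraries held the most TRiC, and the means of the other 4 primer sets lay between 1810 and 2014 CPM, on both sides of bulk. This place beside bulk depends on the scaling. As shares of library counts, all 4 sets lay below bulk, at 0.113% to 0.215% against 0.317% to 0.341%. By these shares NSR, at 0.150% to 0.163%, was not below N6dT, at 0.1445% to 0.153%. Within a group the coefficient of variation of single subunits had a median of 10.1% with NSRdT, 8.89% with N6dT, 8.69% with NSR, 10.9% with N6, 12.4% with dT and 5.42% in bulk.

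**Figure D1:**
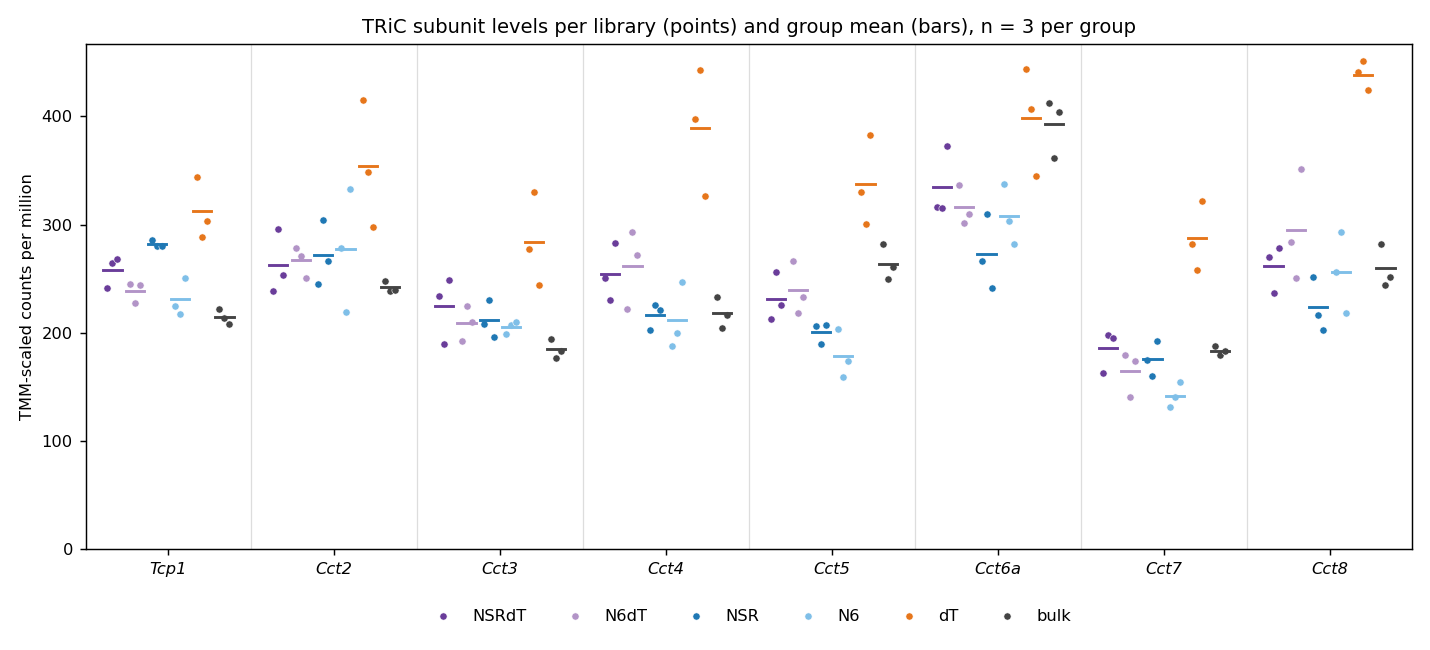
TMM-scaled CPM (y axis) of each TRiC subunit (x axis) in every library (points) with the mean of the 3 libraries of a group (bars). The dT group has the highest mean for all 8 subunits, and for Cct6a the dT and bulk libraries overlap.

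The first comparison set random primers alone (3 NSR and 3 N6 libraries) against dT alone and asked how the kind of primer changes what is counted. All 8 subunits had lower values with random primers, and 6 fell at an adjusted p below 0.05 by edgeR's quasi-likelihood test with Benjamini-Hochberg adjustment over 15682 genes. Among all genes tested, 7.54% were called lower, 9.54% higher and 17.1% in either direction. The median log2 fold change of the subunits was -0.64, beside 0.12 over all genes. By library totals alone these medians were -1.57 and -0.80, so changes are given relative to the composition of the libraries.

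Cct8, which in human pluripotent cells is a highly expressed subunit, ranged from 203 to 293 CPM with a median of 235 CPM in the 6 random-primer libraries, against 441, 451 and 424 CPM in the dT libraries. The 2 sides were far apart, with a log2 fold change of -0.87 ± 0.13 (SE) and an adjusted p of 0.00015 in edgeR. Cct4 ranged from 187 to 247 CPM with a median of 212 CPM with random primers, against 397, 443 and 327 CPM with dT. It fell by 0.86 on the log2 scale, with an SE of 0.13 and an edgeR adjusted p of 0.000219.

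Cct7, the eta subunit, ranged from 131 to 193 CPM with a median of 157 CPM with random primers, against 282, 258 and 322 CPM with dT. Its log2 fold change was -0.86 ± 0.13 (SE) and its edgeR adjusted p 0.000165. Cct5 ranged from 159 to 207 CPM with a median of 197 CPM with random primers, against 330, 300 and 383 CPM with dT. It also had a log2 fold change below -0.8, at -0.83 ± 0.12 (SE, edgeR adjusted p 0.000146). These 4 subunits thus differed by similar amounts, and none of their libraries overlapped between the sides.

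Cct6a and Cct3 fell less. Cct6a ranged from 241 to 338 CPM with a median of 293 CPM with random primers, against 444, 407 and 345 CPM with dT, a log2 fold change of -0.46 ± 0.12 (SE, edgeR adjusted p 0.0129). Cct3 ranged from 196 to 231 CPM with a median of 208 CPM with random primers, against 277, 331 and 244 CPM with dT, a log2 fold change of -0.44 ± 0.12 (SE, edgeR adjusted p 0.0238). The sides were apart for both, but both calls were lost without single libraries. Cct6a was at -0.41 without dT replicate 1 (edgeR adjusted p 0.0504), and Cct3 at -0.35 without dT replicate 2 (adjusted p 0.106) and -0.42 without NSR replicate 3 (adjusted p 0.0526).

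Tcp1 and Cct2 did not pass. Tcp1 ranged from 217 to 286 CPM with a median of 265 CPM with random primers, against 345, 289 and 304 CPM with dT, a log2 fold change of -0.29 ± 0.10 (SE, edgeR adjusted p 0.0598). Its sides did not overlap, but the gap between them was narrow. Cct2 ranged from 220 to 333 CPM with a median of 273 CPM with random primers, against 416, 348 and 298 CPM with dT, a log2 fold change of -0.36 ± 0.14 (SE, edgeR adjusted p 0.0883), and its sides overlapped. Tcp1 passed without dT replicate 2, at -0.38 (edgeR adjusted p 0.0423), and Cct2 without dT replicate 3, at -0.50 (adjusted p 0.0422), or N6 replicate 3, at -0.44 (adjusted p 0.0499). Without their retained_intron entries 7 of 8 subunits were called, Tcp1 among them at -0.60 (adjusted p 0.00649). In all, 7 of 8 subunits had every random-primer library below every dT library, a pattern shown by 16.0% of the 7583 genes at 10 CPM or more.

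**Figure D2:**
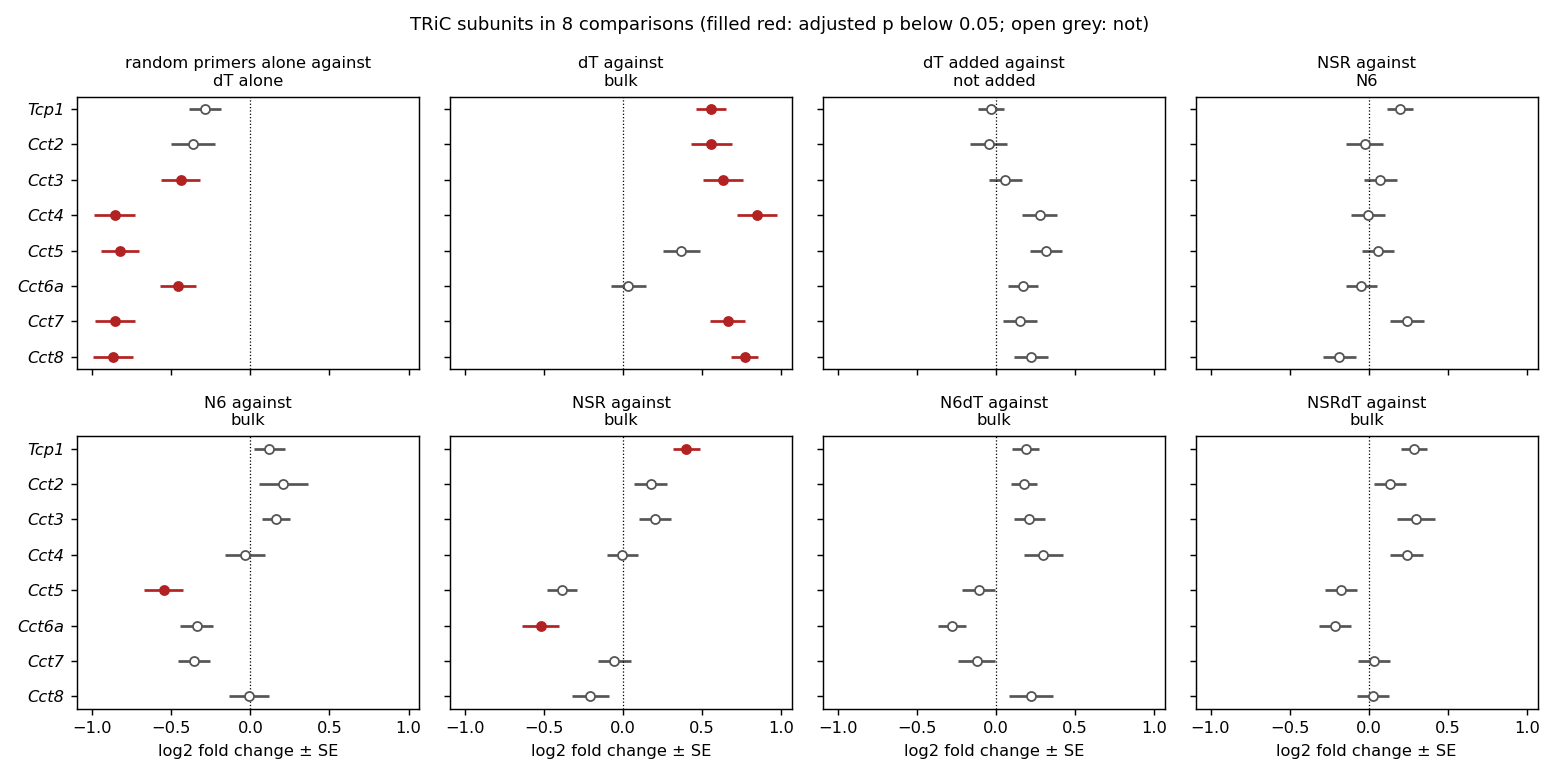
Log2 fold change with its SE (x axis) of each subunit (y axis) in 8 comparisons, with the group named first over the group named second, so that points left of the dotted line are lower in the first group. All 8 subunits lie left of the line in random primers alone against dT alone and right of it in dT against bulk, where Cct6a is at 0.03 (-0.23 by library totals alone).

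The dT libraries were next set against bulk. They also served in the comparison with random primers, so the 2 results are not independent. In dT against bulk 6 of 8 subunits rose, beside 6.9% of 15708 genes called higher, 11.9% lower and 18.8% in either direction. The median log2 fold change of the subunits was 0.59, beside -0.19 over all genes.

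Cct4 measured 397, 443 and 327 CPM with dT, against 233, 205 and 217 CPM in bulk, a log2 fold change of 0.84 ± 0.13 (SE, edgeR adjusted p 0.00968). Cct8 measured 441, 451 and 424 CPM with dT, against 282, 244 and 252 CPM in bulk, a log2 fold change of 0.77 ± 0.08 (SE, edgeR adjusted p 0.00408). For both genes the dT libraries lay well above all bulk libraries. Cct7 (0.66 ± 0.11), Cct3 (0.63 ± 0.12), Cct2 (0.56 ± 0.13) and Tcp1 (0.55 ± 0.10) also rose on the log2 scale, with edgeR adjusted p between 0.00971 and 0.0289.

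Cct5 measured 330, 300 and 383 CPM with dT, against 282, 250 and 261 CPM in bulk, and its log2 fold change of 0.37 ± 0.12 (SE) had an edgeR adjusted p of 0.0849. Cct6a measured 444, 407 and 345 CPM with dT, against 412, 362 and 405 CPM in bulk, a log2 fold change of 0.03 ± 0.11 (SE, edgeR adjusted p 0.896). These libraries overlapped, whereas the other 7 subunits had every dT library above every bulk library, as did 23.6% of the 7583 genes at 10 CPM or more.

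Part of the Cct6a value in bulk came from 1 short entry, Cct6a-003, a retained_intron form of 460 bases at chr5:129789878-129791064. It held 18.03, 32.5 and 18.3 CPM with dT, against 117, 106 and 128 CPM in bulk, where it took between 28.3% and 31.6% of the gene. Without this entry, a choice made after its values were seen, the log2 fold change of Cct6a in dT against bulk was 0.46 (edgeR adjusted p 0.0408). Leaving out a bulk library also changed the number of subunits called, to 1 without replicate 1, 3 without replicate 2 and 0 without replicate 3. Without bulk replicate 2 the log2 fold changes hardly moved, at 0.81 for Cct4, 0.73 for Cct8, 0.65 for Cct7, 0.60 for Cct3, 0.55 for Cct2, 0.55 for Tcp1, 0.33 for Cct5 and -0.02 for Cct6a, and Cct4, Cct7 and Cct8 were the 3 that passed.

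Adding oligo(dT) to random primers was tested over both pairs, NSRdT with N6dT against NSR with N6. No subunit passed, beside 2.17% of 15682 genes called in either direction, 1.8% higher and 0.376% lower. At an unadjusted p under 0.05 there were 2 of 8 subunits in edgeR, Cct5 and Cct4, beside 1402 of 15682 genes. DESeq2 called 0 of 8 subunits, beside 573 genes. Cct5 ranged from 213 to 266 CPM with a median of 229 CPM with added dT, against 159 to 207 CPM with a median of 197 CPM without it. The sides did not overlap, but the log2 fold change of 0.31 ± 0.10 (SE) had an edgeR adjusted p of 0.197. Cct4 had a log2 fold change of 0.28 ± 0.11 (SE, edgeR adjusted p 0.382), and Tcp1 and Cct2 lay at -0.03 and -0.05. The effect of added dT did not pass as different between NSR and N6 for any subunit (interaction, lowest unadjusted p 0.212 for Cct6a, all adjusted p 0.99989 in edgeR).

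NSR primers were set against N6 primers over both pairs, NSR with NSRdT against N6 with N6dT. No subunit passed, beside 0.172% of 15682 genes called in either direction, and DESeq2 called 0 subunits, beside 111 genes. The log2 fold changes ran from -0.18 for Cct8 to 0.24 for Cct7. In edgeR 2 of 8 were under an unadjusted p of 0.05, beside 848 of 15682 genes. They were Cct7 (adjusted p 0.912) and Tcp1 (adjusted p 0.891). Tcp1 was the most even of these, at 286, 280 and 280 CPM with NSR, against 225, 217 and 251 CPM with N6. In the other pair it ranged from 242 to 268 CPM with NSRdT and from 227 to 245 CPM with N6dT. The 2 sides of the tested contrast thus overlapped for Tcp1, as they did for every subunit.

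Each random or mixed primer set was also set against the same 3 bulk libraries, so these comparisons share their bulk side. With NSRdT against bulk 0 of 8 subunits passed, beside 5.28% of genes called in either direction. In edgeR 2 of 8 were at an unadjusted p under 0.05, beside 2940 of 15553 genes. DESeq2 called 1 subunit, beside 1858 genes. With N6dT against bulk 0 of 8 passed, beside 4.79% of genes. In edgeR 2 of 8 were at an unadjusted p under 0.05, beside 2859 of 15234 genes. DESeq2 called 2 subunits, beside 1766 genes. The log2 fold changes ran from -0.21 for Cct6a to 0.30 for Cct3 with NSRdT, and from -0.28 for Cct6a to 0.30 for Cct4 with N6dT. Cct6a was the lowest of the 8 in both, and Tcp1, Cct2, Cct3, Cct4 and Cct8 had positive values in both, which by library totals alone were negative. Without bulk replicate 2 again 0 of 8 passed in both, with Cct6a at -0.28 and Cct8 turned to -0.022 with NSRdT, and Cct6a at -0.34 and Cct4 at 0.25 with N6dT.

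With NSR against bulk, Tcp1 rose and Cct6a fell, beside 4.01% of genes called higher, 4.65% called lower and 8.67% in either direction. Tcp1 measured 286, 280 and 280 CPM with NSR, against 222, 213 and 208 CPM in bulk, a log2 fold change of 0.40 ± 0.08 (SE, edgeR adjusted p 0.0346), which turned to -0.61 when libraries were scaled by their totals alone. Cct6a measured 266, 310 and 241 CPM with NSR, against 412, 362 and 405 CPM in bulk, a log2 fold change of -0.52 ± 0.12 (SE, edgeR adjusted p 0.0404). Both calls involved short retained_intron entries. Without these entries Tcp1 stood at 0.01 and Cct6a at -0.34 (adjusted p 0.137), and without Cct6a-003 alone Cct6a was at -0.32 (adjusted p 0.154).

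With N6 against bulk Cct5 was the 1 subunit that fell, beside 3.9% of genes called lower, 3.31% higher and 7.21% in either direction. It measured 204, 159 and 174 CPM with N6, against 282, 250 and 261 CPM in bulk, a log2 fold change of -0.55 ± 0.12 (SE, edgeR adjusted p 0.0428). Cct5 had a log2 fold change of -0.39 with NSR (adjusted p 0.052), -0.11 with N6dT, -0.17 with NSRdT and 0.37 with dT against the same bulk libraries. None of the calls with NSR or N6 held when any 1 bulk library was left out, replicate 2 included, where the log2 fold changes were 0.39 for Tcp1 and -0.58 for Cct6a with NSR and -0.59 for Cct5 with N6. The Cct5 call was also lost without N6 replicate 2 (adjusted p 0.0505) or N6 replicate 3 (0.0623), and that of Cct6a without NSR replicate 1 (0.0625).

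Levels were then compared between subunits as CPM per kilobase, in which each transcript entry is divided by its own length. In NSRdT, N6dT, NSR and N6 libraries Cct6a had the highest mean, between 247 and 275 CPM per kilobase (148 to 182 without Cct6a-003), and Cct7 the lowest, between 74.5 and 102 CPM per kilobase. With dT Cct8 had 285 ± 35 and Cct6a 260 ± 45 CPM per kilobase, and their libraries overlapped. In bulk Cct6a led with 413 ± 29 CPM per kilobase, or 159 ± 10 without the short entry Cct6a-003, followed by Cct5 with 146 ± 8 and Cct8 with 143 ± 10, and Cct7 was lowest with 87.8 ± 2.2 (SD, n = 3). The lead of Cct6a in bulk thus came mostly from this 1 entry. Without it Cct6a still had the highest mean in bulk, but its libraries overlapped with those of Cct5. With NSRdT, N6dT, NSR and N6 the Cct6a mean without this entry lay below that of Cct8. Cct8 had 196, 208, 198 and 216 CPM per kilobase in these sets. Of the 7 neighbouring pairs in the order, 5 overlapped with NSRdT, 4 with N6dT, 4 with NSR, 5 with N6, 6 with dT and 2 in bulk, so most of the middle ranks were not resolved in RT-RamDA libraries.

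The highest subunit exceeded the lowest by 2.86-fold ± 0.31 with NSRdT, 3.45-fold ± 0.33 with N6dT, 2.76-fold ± 0.56 with NSR, 3.12-fold ± 0.67 with N6, 2.34-fold ± 0.41 with dT and 4.71-fold ± 0.29 in bulk (per kilobase, SD, n = 3 each). The lowest of the bulk libraries, at 4.42-fold, lay above the highest RT-RamDA library, at 3.82-fold. This order did not hold without Cct6a-003, a choice made after its values were seen. The highest subunit then exceeded the lowest by 2.10-fold with NSRdT, 2.79-fold with N6dT, 2.37-fold with NSR, 2.66-fold with N6, 2.24-fold with dT and 1.81-fold in bulk, and bulk, at 1.75 to 1.89-fold, overlapped with the lowest NSRdT and dT libraries.

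Balance was expressed as the log2 level per kilobase of a subunit minus the mean over the 8 subunits in the same library, which does not depend on library scaling. Between RT-RamDA (15 libraries) and bulk (3 libraries) 3 of 8 subunits passed a two-sided exact permutation test with adjustment over 16 tests. Tcp1 stood at 0.26 ± 0.14 in RT-RamDA and -0.29 ± 0.04 in bulk (SD), a difference of 0.55 with p = 0.00123, the smallest that this exact test can give, and adjusted p = 0.0098. Cct6a stood at 0.74 ± 0.22 in RT-RamDA and 1.58 ± 0.08 in bulk, a difference of -0.84 with exact permutation p = 0.00123, again the smallest possible, and adjusted p = 0.0098. Cct8 stood at 0.49 ± 0.23 in RT-RamDA and 0.05 ± 0.05 in bulk, a difference of 0.44 with exact permutation p = 0.00245 and adjusted p = 0.0131. For these 3 subunits no RT-RamDA library overlapped with bulk.

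These differences changed with which entries were counted and how they were divided by length. The Tcp1 entry Tcp1-006, a retained_intron form of 578 bases, held between 23.5 and 55.5 CPM in the 15 RT-RamDA libraries, against 0.618, 1.87 and 2.91 CPM in bulk. With protein_coding entries alone, and Cct6a kept whole, the Tcp1 difference was -0.067 (exact permutation, adjusted p = 0.724), and with each gene divided by the length of its main transcript it was 0.20 (adjusted p = 0.134). Without Cct6a-003 the Cct6a difference was -0.15 (exact permutation, adjusted p = 0.326), and with main transcript lengths -0.37 (adjusted p = 0.0196). Cct8 was at 0.050 with main transcript lengths (exact permutation, adjusted p = 0.697) and at 0.34 without Cct6a-003 (adjusted p = 0.0762), but at 0.66 with protein_coding entries alone (adjusted p = 0.0098). When any 1 bulk library was left out 0 subunits passed, and 2 bulk libraries allow no exact p below 0.00735.

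Between random primers and dT 0 of 8 subunits passed in balance. The lowest exact permutation p was 0.0238 for Tcp1, which stood at 0.36 ± 0.15 with random primers and 0.09 ± 0.03 with dT (adjusted p = 0.0762), and the smallest p that 6 against 3 libraries can give is 0.0119. Tcp1, Cct5 and Cct6a were the 3 subunits with an unadjusted exact p under 0.05.

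**Figure D3:**
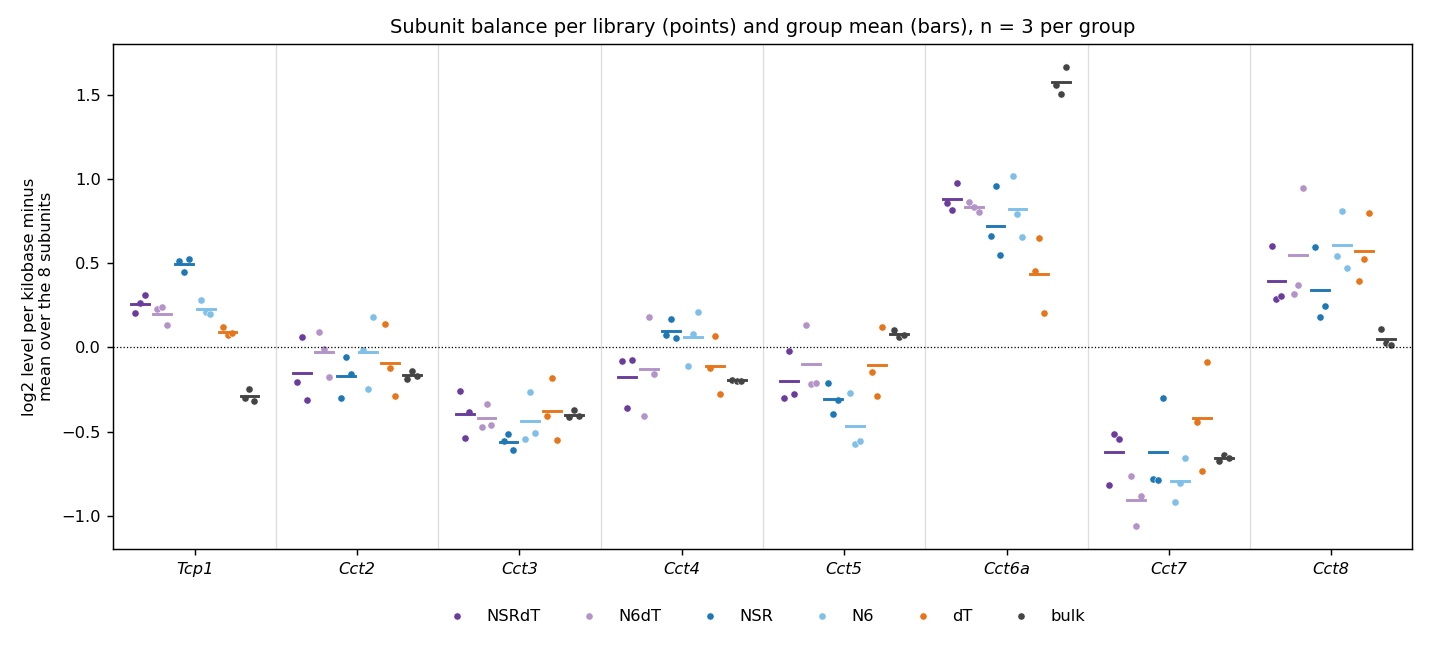
Log2 level per kilobase of each subunit minus the mean over the 8 subunits in the same library (y axis), by subunit (x axis), for every library (points) with the group mean (bars). Cct6a lies highest in bulk, at 1.58, and Tcp1 lies below 0 in bulk but above 0 in all RT-RamDA groups.

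Transcript entries that are not labelled protein_coding took a varying share of the subunits' counts. Cct2, with 1 entry, and Cct6a, with no protein_coding entry, were left out. With random primers the share was 22.7% ± 7.3 for Cct4, against 2.64% ± 0.81 with dT (SD, n = 6 and 3), an exact permutation p of 0.0119, the smallest possible, and an adjusted p of 0.0571 over 12 tests. Tcp1 had 32.2% ± 7.0 with random primers and 15.9% ± 5.3 with dT (exact permutation, adjusted p = 0.0571). Cct5 had 9.19% ± 4.29 with random primers and was listed at 0 in all 3 dT libraries (adjusted p = 0.0571, exact permutation). All 6 subunits had a higher mean share with random primers, but none passed the adjusted threshold.

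Against bulk the share was 26.9% ± 8.6 for Tcp1 in RT-RamDA, against 12.8% ± 0.40 in bulk (exact permutation, adjusted p = 0.0571). For Cct7 it was 9.39% ± 6.75 in RT-RamDA, against 20.0% ± 2.0 in bulk (exact permutation, adjusted p = 0.0571). No subunit passed here. Among these 6 subunits the largest such entry in bulk was Cct8-002, a nonsense_mediated_decay form, with 69.9 CPM or 26.8% of the gene.

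The split of Cct4 and Cct6a between the entries with a long and a short 3′ end was the clearest pattern between entries. It was found after the values were seen, so it is given as a description with no test. Shares are of the counts of entries of at least 1400 bases with the same last exon start, without retained_intron forms. Cct4-003, a retained_intron form of 1736 bases, was thus left out. It averaged 9.43% of the gene with NSR and 4.01% in bulk, and at most 2.76% in the other groups. By this measure the long-ended Cct4 entry took 80.4%, 94.1% and 82.8% with NSRdT and 100%, 81.1% and 92.5% with N6dT. The same entry took 32.0%, 58.2% and 52.1% with NSR and 49.0%, 54.6% and 47.8% with N6. It took 93.6%, 91.3% and 88.2% with dT and 69.0%, 66.6% and 71.7% in bulk. Thus every library that contained oligo(dT) counted most of Cct4 in the long entry, whereas libraries with random primers alone split it between the entries, and bulk lay between them.

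Cct6a behaved alike except in bulk. Its long-ended entry took 91.4%, 73.8% and 85.2% with NSRdT, 78.4%, 84.0% and 80.8% with N6dT, 37.1%, 35.5% and 57.1% with NSR, and 43.8%, 44.9% and 56.7% with N6. It took 98.2%, 96.5% and 87.0% with dT and 86.6%, 86.2% and 88.1% in bulk. No library with random primers alone reached the lowest of the other libraries for either gene. These are shares of estimated counts and not of molecules, since a longer entry yields more fragments.

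The other 3 subunits with separate ends did not set NSR and N6 apart in this way. The long Tcp1 entry averaged 35.0% with NSRdT, 40.7% with N6dT, 33.1% with NSR, 41.5% with N6, 25.3% with dT and 44.7% in bulk. For Tcp1 the dT libraries, at 14.2% to 31.4%, lay below every library of the other groups except NSR. For Cct7 the group means lay between 71.2% and 89.1%, and for Cct8 between 70.7% and 82.0%. The bulk libraries lay below every N6dT and NSR library for both genes, and below every N6 library for Cct7.

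**Figure D4:**
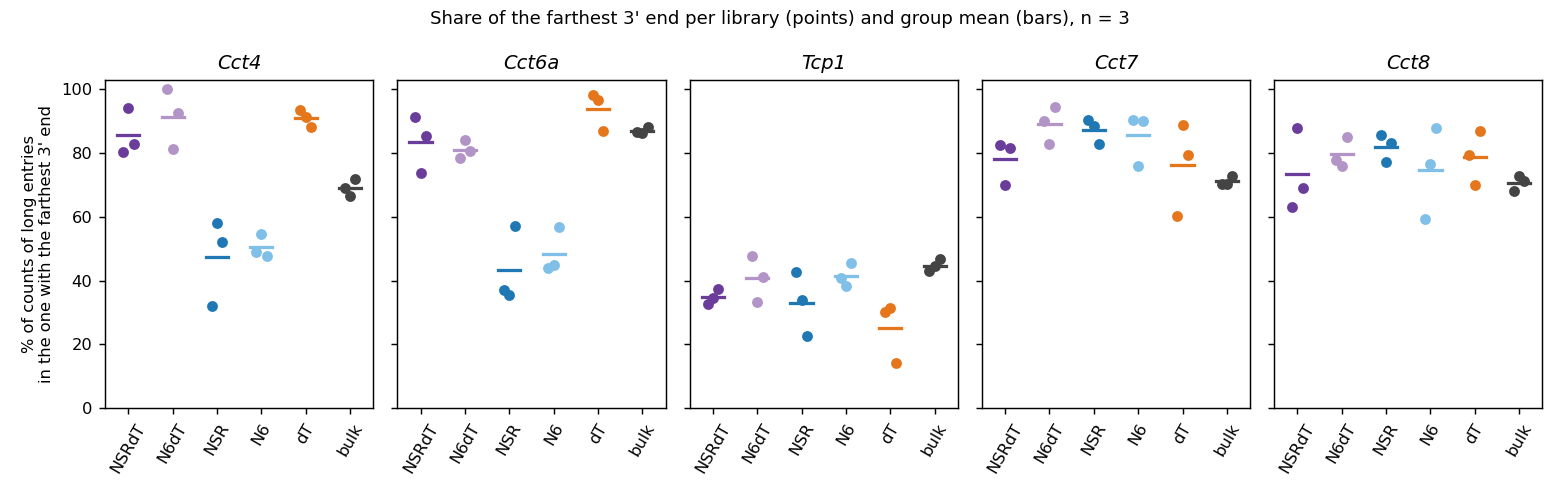
Percent of the counts of long entries that fall in the entry with the farthest 3′ end (y axis), by primer set (x axis), for 5 subunits with separate ends. Long entries have at least 1400 bases and the same last exon start, and retained_intron forms are left out. Each library is 1 point and the group mean is a bar. For Cct4 and Cct6a the NSR and N6 libraries lie below all others, and for Tcp1, Cct7 and Cct8 they do not.

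Several ends overlap other genes, and the strand of counting is not given in the sources used here, so reads there cannot be told apart. Cct6a-001 shares 452 bases with Psph on the opposite strand, a gene counted at 12.7 CPM with N6, 36.8 CPM with dT and 19.7 CPM in bulk. Tcp1-001 shares 571 bases with Acat3 on the opposite strand, which averaged at most 4.05 CPM in any group. Cct8-001 shares 192 bases with Usp16 and Cct7-001 shares 214 bases with Pradc1, both on the opposite strand, and Cct4 has no such overlap. Shared 31-base words with other genes made up 13.1% of the main Cct3 transcript, 7.55% of Cct7, 3.50% of Cct4 and 2.14% of Tcp1, and the genes that share them summed to less than 1 CPM for each subunit. The counted pseudogenes Cct3-ps1 and Tcp1-ps1 had 7.15 and 5.02 estimated counts over all libraries, and the paralog Cct6b, known from testis, had 25 counts.

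The partners of TRiC were described by lists, next to the subunits' own values in the same comparison. In random primers against dT, 4 of 6 prefoldin subunits fell and 0 rose, with a median log2 fold change of -1.28, where 7.54% of all genes were called lower and 9.54% higher. Without dT replicate 1 the count was 1, Pfdn6. Pfdn5 had 10.6 ± 2.3 CPM with NSR and 20.6 ± 3.2 CPM with N6, against 49.6 ± 38.5 CPM with dT (SD, n = 3 each), a log2 fold change of -1.74 ± 0.39 (SE, edgeR adjusted p 0.00578). Its dT libraries ran from 19.8 to 93.1 CPM, the lowest of them within the range of N6, and without dT replicate 1 the log2 fold change was -0.96 (adjusted p 0.117). Pfdn6 had a log2 fold change of -1.41 (adjusted p 0.00561, edgeR) and Pfdn1 of -1.16 (adjusted p 0.021, or 0.100 without dT replicate 1 and 0.0557 without dT replicate 3), while Vbp1, the most abundant prefoldin mRNA, was at -0.80 (adjusted p 0.0573). Of the 4 tested phosducin-like cofactors Pdcl3 fell, by 1.56 on the log2 scale (edgeR adjusted p 0.0155, or 0.0751 without dT replicate 3), while Txndc9 and Pdcl were at 0.11 and 0.24.

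Of the 12 actin and tubulin genes, the main clients, 4 fell and 1 rose with random primers. Tuba1b, an alpha-tubulin, had 527 CPM with NSR and 576 CPM with N6, against 1034 CPM with dT (-0.90 ± 0.09, SE, edgeR adjusted p 3.06e-06). Actg1, cytoplasmic gamma-actin, had a log2 fold change of -0.79 (edgeR adjusted p 9.95e-06) and Tubb5 of -0.23 (adjusted p 0.048, and above 0.05 when any of 6 of the 9 libraries was left out), while Actb, beta-actin, was at 0.13 (adjusted p 0.323). The gene that rose was Tubb2b, named after its value was seen, at 1.37. Of the 5 tubulin cofactors, Tbca fell by 3.11 (edgeR adjusted p 0.000226) and Tbcb by 1.66 (adjusted p 0.014, or 0.109 without dT replicate 2), while Tbcd was at 0.24. Tbca had 2.70 CPM with NSR and 7.91 CPM with N6, against 40.1 CPM with dT.

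Among 7 tested WD40 clients 2 fell with random primers, Gnb2l1, the ribosomal scaffold Rack1, by 1.56 (edgeR adjusted p 4.55e-10) and Gnb2 by 1.24 (adjusted p 0.00869, or 0.0651 without dT replicate 3), while Gnb1 was at -0.44 (adjusted p 0.25). Of 13 cytosolic Hsp70 and Hsp90 system genes 9 fell and 1 rose. Hspa8, the constitutive Hsp70, fell by 0.79 (edgeR adjusted p 7.52e-06) and Ptges3, an Hsp90 cochaperone, by 0.98 (adjusted p 1.62e-05). The Hsp90 genes Hsp90aa1 and Hsp90ab1 fell by 0.25 and 0.24 (adjusted p 0.00125 and 0.00539 in edgeR). The gene that rose was Hspa4, named after its value was seen, at 0.78, or -0.15 by library totals alone. Of 4 mitochondrial chaperonin and Hsp70 genes, Hspe1, the chaperonin lid, fell by 2.18 (edgeR adjusted p 1.42e-08) and Trap1 by 0.74 (adjusted p 0.00306), while Hspd1, its ring subunit, was at -0.24 (adjusted p 0.176) and Hspa9 at -0.16.

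In dT against bulk, which shares the dT libraries, 0 of 6 prefoldin subunits passed in edgeR. Of these, 1 (Vbp1) was under an unadjusted p of 0.05, beside 4754 of 15708 genes. The log2 fold changes were 1.27 for Pfdn5, 0.59 for Vbp1, 0.59 for Pfdn1 and 0.061 for Pfdn6. Pfdn5 was at 0.44 without dT replicate 1, while Pfdn5 (1.64), Pfdn1 (0.82) and Vbp1 (0.78) passed without dT replicate 2 (edgeR adjusted p 0.0359, 0.0179 and 0.0285). Of the 12 actin and tubulin genes 5 rose and 1 fell, of the 13 cytosolic chaperones 4 rose and 1 fell, and of the 7 WD40 clients 2 rose, beside 6.9% of all genes called higher and 11.9% lower. Leaving out 1 library gave 0 to 5, 0 to 6 and 1 to 2 that rose, and without bulk replicate 2 the counts that rose were 2, 1 and 1. Of the mitochondrial list Hspe1 (0.94) and Trap1 (0.99) rose (edgeR adjusted p 0.00968 and 0.00379), while Hspd1 and Hspa9 were at 0.22 and -0.05. That count was 1 to 3 with a library left out and 2 without bulk replicate 2. Pdcl3 rose by 1.05 (edgeR adjusted p 0.0499), but did not pass without bulk replicate 2. No tubulin cofactor passed (lowest edgeR adjusted p 0.265, Tbcc). With dT added to random primers, where 0 of 8 TRiC subunits passed, Tbca rose by 2.54, Hspe1 by 1.55, Gnb2 by 1.07, Gnb2l1 by 0.67 and Tuba1b by 0.49, and Hsp90ab1 fell by 0.22, or was at 0.017 by library totals alone (edgeR adjusted p between 7.13e-07 and 0.0355). The Gnb2 call was lost when any of 11 of the 12 libraries was left out, at log2 fold changes between 0.97 and 1.14.

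**Figure D5:**
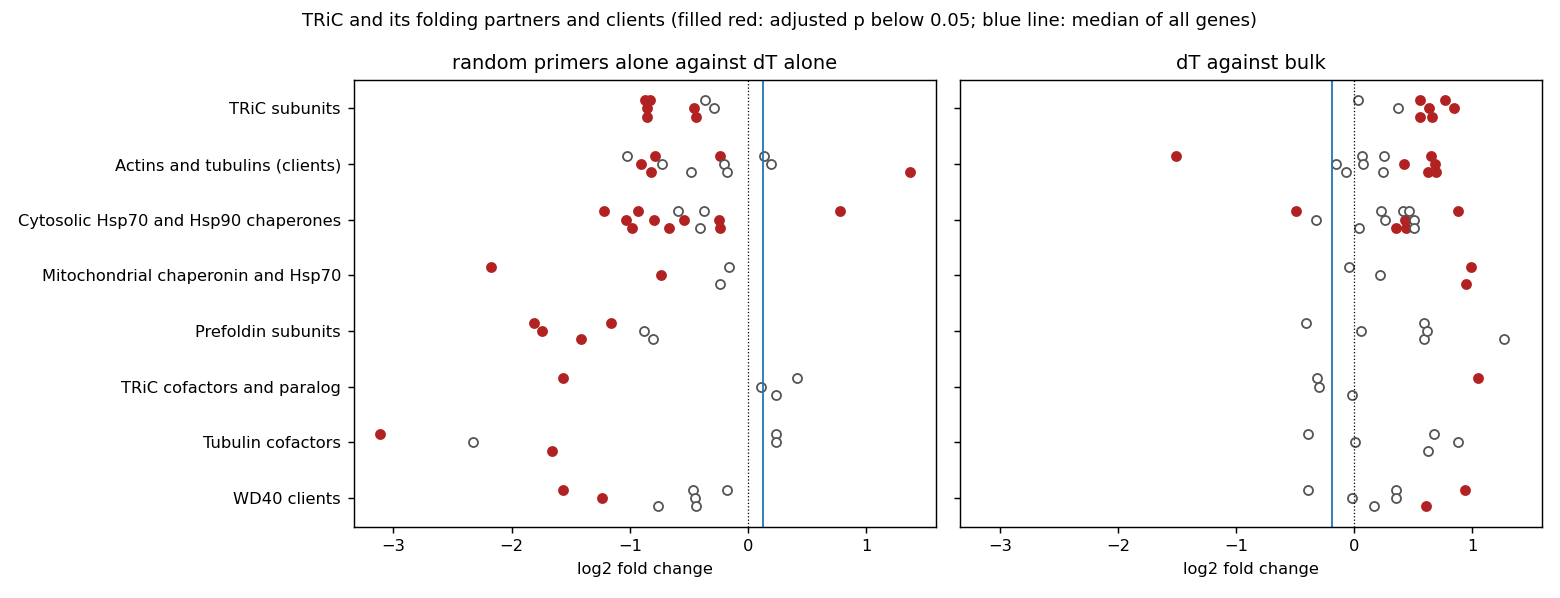
Log2 fold change (x axis) of TRiC subunits, partners and clients (y axis, 1 point per gene), filled red where the edgeR adjusted p is below 0.05, with the blue line at the median of all genes. In random primers against dT the TRiC subunits lie between -0.87 and -0.29, and in dT against bulk between 0.03 and 0.84.

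The genes most alike to the mean of the 8 subunits over the 18 libraries were looked for among 7574 genes at 10 CPM or more. Among them were Rps2 (Pearson r = 0.973), Rpl32 (0.971), Upp1 (0.964) and Rplp0 (0.964), and of these 4 all but Upp1 encode ribosomal proteins. Rps2 had 778 CPM with NSRdT, 702 CPM with N6dT, 631 CPM with NSR, 606 CPM with N6, 1407 CPM with dT and 775 CPM in bulk. Among the subunits themselves, the correlation with the mean of the other 7 ran from 0.535 for Cct6a to 0.869 for Cct4. These values describe the same 18 libraries, and the libraries of a group share their primer and method.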

How the data were processed

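The authors deposited a table of estimated counts per GENCODE transcript for 18 libraries, and all 18 value columns were used. bcl2fastq 2.16.0.10 and mm10 are named in the submitters' processing notes; for aligner, quantifier and strand the entry is: not given in the sources used here. The series text counts 12 RT-RamDA samples and 15 are listed, all of them analysed. The 92 ERCC entries were left out. Counts were summed per gene identifier, rounded to whole numbers and compared by edgeR 4.0.16 under R 4.3.3 (scaling by TMM, filterByExpr, quasi-likelihood test, two-sided, called at an adjusted p under 0.05 over all genes tested). Contrasts between primer sets were fitted on all 15 RT-RamDA libraries, while a primer set was fitted with bulk on its own 6 libraries. Printed CPM use TMM factors over the 18 libraries. Balance and entry shares were compared by exact permutation in Python 3.11.15 with scipy 1.17.1. Libraries of different primer sets on the same side were treated as exchangeable. The scripts were tested on simulated data. The precision of a level is set by 8633 or more TRiC counts per library, and by 3 libraries per group.

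The members and lists were chosen with earlier results of these data known. Named genes outside TRiC are those of each list with the 2 highest mean levels or the 2 lowest p in random primers against dT, together with the 5 most alike in pattern, 1 of which is not reported here. Further alternatives were DESeq2 1.42.0, other scalings, filters, entry types, the replicate number as a block and leaving out each library. The choice to leave out Cct6a-003 or the retained_intron entries was made after seeing the data. Sequences and overlaps come from GENCODE mouse vM21.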

Additional observations from a re-analysis of the deposited data

How the results depend on the processing

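The count of 6 subunits called in random primers against dT stayed between 5 and 7 when any library was left out, and between 6 and 8 under the other settings tried, apart from 5 of the 7 subunits that have protein_coding entries when these alone were counted. Library totals alone moved the median of all genes to -0.80, 0.22, 0.42, -1.39, -1.04, -0.45, -1.23 and -0.75 in random primers against dT, dT added, NSR against N6, and N6, NSR, dT, N6dT and NSRdT against bulk, and the share of calls that were higher to 15.9%, 94.5%, 97.4%, 1.62%, 2.94%, 21.9%, 1.59% and 4.54%, where TMM gave 55.8%, 82.7%, 25.9%, 45.9%, 46.3%, 36.7%, 56.3% and 51.0%. Subunits called by totals were then 5 with dT added, 5 in NSR against N6, 8 each with N6, NSR, N6dT and NSRdT against bulk and 3 with dT. Log2 values that turned by totals and were then called included 0.36 for Cct6a in NSR against N6. Against bulk, Tcp1, Cct2 and Cct3 turned to -1.25, -1.16 and -1.20 with N6 and to -0.61, -0.83 and -0.81 with NSR. With N6dT they turned to -1.01, -1.03 and -0.99, with -0.90 for Cct4 and -0.98 for Cct8. With NSRdT they turned to -0.43, -0.58 and -0.42, with -0.48 for Cct4, -0.69 for Cct7 and -0.69 for Cct8. A further 6 subunit values turned by totals without a call.

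With protein_coding entries alone, which Cct6a lacks, 1 subunit was called with dT added, 0 in N6 and 1 in NSR against bulk. Without retained_intron entries these counts were 1, 2 and 1, and without Cct6a-003 NSR had 1. DESeq2 size factors gave 0 with N6 and 1 with NSR, no filter gave 0 with NSR, and DESeq2's Wald test gave 3 with N6, 2 with N6dT and 1 with NSRdT. Replicate numbers were not treated as pairs. Same-numbered libraries correlated between -0.045 and 0.051 over 45 pairs, and 4 of 18 libraries were most like one of their number. These values show no shared effect but cannot show that the libraries were unpaired. Against bulk the replicate block gave 0 calls for N6, 0 for NSR and 2 for dT. Leaving out 1 library gave 0 to 2 calls with N6, 0 to 3 with NSR, 0 to 7 with dT and 0 to 1 with NSRdT against bulk, and 0 with N6dT against bulk, with dT added and in NSR against N6. In balance against bulk 0 to 4 subunits passed with a library left out, and 1 by main transcript length or with no division by length, and Tcp1 turned to -0.067 with protein_coding entries. Shares of entries that are not protein-coding passed for 0 to 4 subunits in random primers against dT and 0 to 1 against bulk with a library left out, and for 3 and 2 as shares of levels per length.

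Counts of all genes called moved by over 1.5 times. In random primers against dT, 2679 became 5148 by totals and 1702 with protein_coding entries. With dT added, 341 became 543 by totals and 573 with DESeq2. In NSR against N6, 27 became 542, 89 without a filter, 12 with protein_coding entries and 111 with DESeq2. Against bulk, N6 had 1096, or 8726 by totals, 607 without a filter, 700 with protein_coding entries, 572 with the replicate block and 2075 with DESeq2. NSR had 1336, or 6126, 668, 780, 584 and 2324, N6dT had 730, or 8117, 367, 338, 312 and 1766, and NSRdT had 821, or 3941, 380, 392, 303 and 1858, in the same order. For dT, 2957 became 1809 with protein_coding entries and 706 with the replicate block. With a library left out these counts ran from 359 to 2151 for N6, 365 to 2581 for NSR, 299 to 5089 for dT, 207 to 1468 for N6dT and 225 to 1770 for NSRdT. The cause of these changes was not tested.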
